A study of Mus musculus with 4 samples.

Results

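The genes described here are 39 genes of DNA replication, followed in the mouse host cells of human breast tumours grown in mice. They were taken from a list of gene symbols, and each array feature (a spot carrying a probe) whose platform annotation gives exactly 1 of these symbols was kept. All 39 genes had a feature, with 73 features among the 45220 on each array, and the whole array named 19087 genes. The tumours were xenografts of MDA-MB-231, a cell line from a human breast cancer without hormone receptors or HER2 amplification, carried by immunodeficient mice. In 2 samples the mice had received sunitinib, which blocks the receptors for VEGF and PDGF among other kinases, at 40 mg/kg/day, and in 2 samples they had received vehicle. No strain, sex or age of the mice is given in the sources read. The title of the series names withdrawal of sunitinib, but the time between last dose and sampling is not in the labels. The arrays carry mouse probes and so read host cells (fibroblasts, vessels, immune cells, fat), together with any human tumour transcript that binds the same probe, and the share of human RNA is not measured here.

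Before a cell copies its DNA, the origin recognition complex with Cdc6 and Cdt1 loads the ring of Mcm2 to Mcm7 subunits onto origins. Cdc45 and the GINS complex turn this ring into an active helicase, primase and DNA polymerase alpha start each strand, and the sliding clamp Pcna, placed by the Rfc clamp loader, holds the polymerases to the template. Many of these genes are transcribed at the entry into S phase under E2F transcription factors, and in a tumour stroma they mark the host cells that are dividing or about to divide.

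The promoters of Mcm genes are shown first because these subunits of one helicase did not all read alike and because several of their promoters hold E2F-type letters. Windows of 300 bases (250 before to 50 after the gene start, RefSeq, GRCm38.p6) were searched on both strands for TTTCCCGC, TTTGGCGC, TTTCGCGC and TTTGCCGC, and overlapping matches were each counted. Of the 31 members with a window in the RefSeq table, 13 held at least 1 match in a window (41.9%), compared with 704 of all 27025 genes (2.605%). Capitals mark the matches, read 5′ to 3′ on the strand of the gene.
Mcm3 promoter (chr1:20820263-20820562, minus strand): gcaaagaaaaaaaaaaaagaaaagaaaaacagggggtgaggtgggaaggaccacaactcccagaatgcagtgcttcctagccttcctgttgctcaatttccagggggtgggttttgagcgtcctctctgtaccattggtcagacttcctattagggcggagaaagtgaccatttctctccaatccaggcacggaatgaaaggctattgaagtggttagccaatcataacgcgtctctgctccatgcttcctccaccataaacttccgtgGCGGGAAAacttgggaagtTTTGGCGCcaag
Mcm5 promoter (chr8:75109259-75109558, plus strand): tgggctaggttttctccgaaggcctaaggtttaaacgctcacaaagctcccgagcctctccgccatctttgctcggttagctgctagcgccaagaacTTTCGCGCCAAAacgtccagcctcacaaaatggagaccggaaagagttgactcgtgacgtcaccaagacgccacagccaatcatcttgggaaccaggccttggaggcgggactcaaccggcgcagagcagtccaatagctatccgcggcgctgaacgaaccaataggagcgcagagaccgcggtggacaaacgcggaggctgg
Mcm6 promoter (chr1:128359656-128359955, minus strand): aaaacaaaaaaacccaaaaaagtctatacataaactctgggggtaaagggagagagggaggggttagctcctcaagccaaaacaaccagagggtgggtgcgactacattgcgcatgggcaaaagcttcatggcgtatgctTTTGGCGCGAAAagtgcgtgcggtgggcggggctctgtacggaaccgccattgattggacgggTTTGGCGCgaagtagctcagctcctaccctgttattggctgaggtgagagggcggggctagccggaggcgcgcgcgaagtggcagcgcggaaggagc
Mcm7 promoter (chr5:138171834-138172133, minus strand): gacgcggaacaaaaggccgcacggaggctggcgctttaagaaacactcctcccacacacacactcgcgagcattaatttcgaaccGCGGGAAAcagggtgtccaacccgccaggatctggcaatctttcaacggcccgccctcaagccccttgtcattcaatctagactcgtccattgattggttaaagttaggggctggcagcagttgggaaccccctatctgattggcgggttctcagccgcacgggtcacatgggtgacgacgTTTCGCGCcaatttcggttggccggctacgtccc
The windows of Mcm3 and Mcm7 each hold 2 separate matches, that of Mcm5 holds 2 matches that overlap, and that of Mcm6 holds 3, of which 2 overlap. A second start of Mcm7 and the windows of Mcm2 and Mcm10 held none of these letters. Mcm4 had no window in the RefSeq table and was not searched. The 4 windows were chosen for display with the values known. Members with and without these letters overlapped widely in their difference between sunitinib and vehicle. The median difference was 0.15 on the log2 scale among the 13 members with a match and 0.25 among the 18 without one, with ranges of -0.19 to 0.53 and -0.14 to 0.51.

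Values are the authors' log2 signals, which were already on a common distribution (25th percentile 8.70 or 8.71 and 75th percentile 9.47 to 9.49 on every array), and no member was saturated. The 5th percentile was 8.48 or 8.49, close to the 25th, and differences of genes near this floor may be understated. The median level of the 19087 genes was 9.08, and the 4 members below it (Orc1, Cdc6, Gins3 and Rfc3) are close to background. Each slide held 1 array of each group, replicates 1 on slide 1 and replicates 2 on slide 2, so each slide gives its own difference. Xist, the RNA of the inactive X chromosome, read 8.97 and 8.96 in the sunitinib arrays against 12.19 and 12.26 in the vehicle arrays, while the Y-linked Eif2s3y gave 10.21 and 10.02 under sunitinib and 8.46 and 8.58 under vehicle. The treatment and this difference between arrays with and without Xist signal cannot be told apart for any gene below. Among host markers, 9 of 11 adipocyte genes were higher and 0 lower with sunitinib on both slides, with a log2 summed signal of 15.56 and 15.20 in sunitinib arrays against 14.73 and 14.48 in vehicle arrays, and 1 of the 11 was near background. Of 9 fibroblast genes, 6 were lower and 0 higher on both slides (log2 summed signal 17.91 and 17.86 with sunitinib against 18.07 and 17.97 with vehicle). For 8 pericyte and smooth muscle genes the summed signal was 14.92 and 14.64 with sunitinib against 15.58 and 15.22 with vehicle. On both slides 2 were higher and 3 lower. The median difference of the 8 was -0.09, with -0.38 on slide 1 and 0.15 on slide 2. Lists for blood vessel endothelium, macrophage, neutrophil, lymphoid, skin epithelium and skeletal muscle cells had median differences from -0.08 to 0.11. Of all named genes, 32% were higher and 27.9% lower on both slides, beside which these marker counts stand. The part of these cell types in the values below was not tested. In a bulk sample, more cycling host cells, more RNA per cycling cell and human tumour transcripts that bind these probes cannot be told apart.

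The comparison of sunitinib with vehicle asked whether replication genes, as read by the mouse probes, differed. Most members read higher with sunitinib, by small amounts. The median difference over the 39 genes was 0.22 on the log2 scale, against 0.005 over all named genes, and was 0.27 on slide 1 and 0.17 on slide 2. On both slides 24 of the 39 were higher (61.5%), which 32% of all named genes were, and 2 were lower, as were 27.9% of all named genes. The other 13 went opposite ways on the slides. In 22 members both sunitinib arrays lay above both vehicle arrays, compared with 25.9% of all named genes, and in 2 both lay below, compared with 22.3%.

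No member passed the limma test after Benjamini-Hochberg adjustment over all 30654 tested values (lowest adjusted p of a member 0.362). Of the 19087 genes 1 did (0.00524%), namely Xist (difference -3.26, limma adjusted p = 0.0149). With the slide as a block Xist did not pass either (limma adjusted p = 0.546). At an unadjusted limma p under 0.05, 15 members were higher (38.5%, against 8.02% of all named genes) and 0 were lower (against 5.93%). The differences of the 15 ran from 0.23 to 0.53, or 1.17-fold to 1.44-fold. All 15 were among the 35 members above the median gene level (42.9%), where 10.5% of named genes were higher at that p. On both slides 23 of the 35 were higher (65.7%), against 35.2% of named genes above that level. With the slide as a block, 10 of the 15 kept an unadjusted p under 0.05 (25.6% of the members, against 5.46% of all named genes), and Orc6, Cdt1, Mcm3, Pola1 and Prim1 did not. With an array left out, 1 group is a lone array assumed to vary like the other, and 1 residual degree of freedom remains. The share of all named genes lower at an unadjusted p under 0.05 was not counted in these fits. Nothing is therefore read from the members lower there. The count of members higher at that p moved when an array was left out. It was 6 without sunitinib replicate 1 (6.12% of all named genes), when 3 members were also lower at that p, and 16 without sunitinib replicate 2 (4.34%). It was 6 without vehicle replicate 1 (3.76%) and 8 without vehicle replicate 2 (5.01%).

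**Figure D1:**
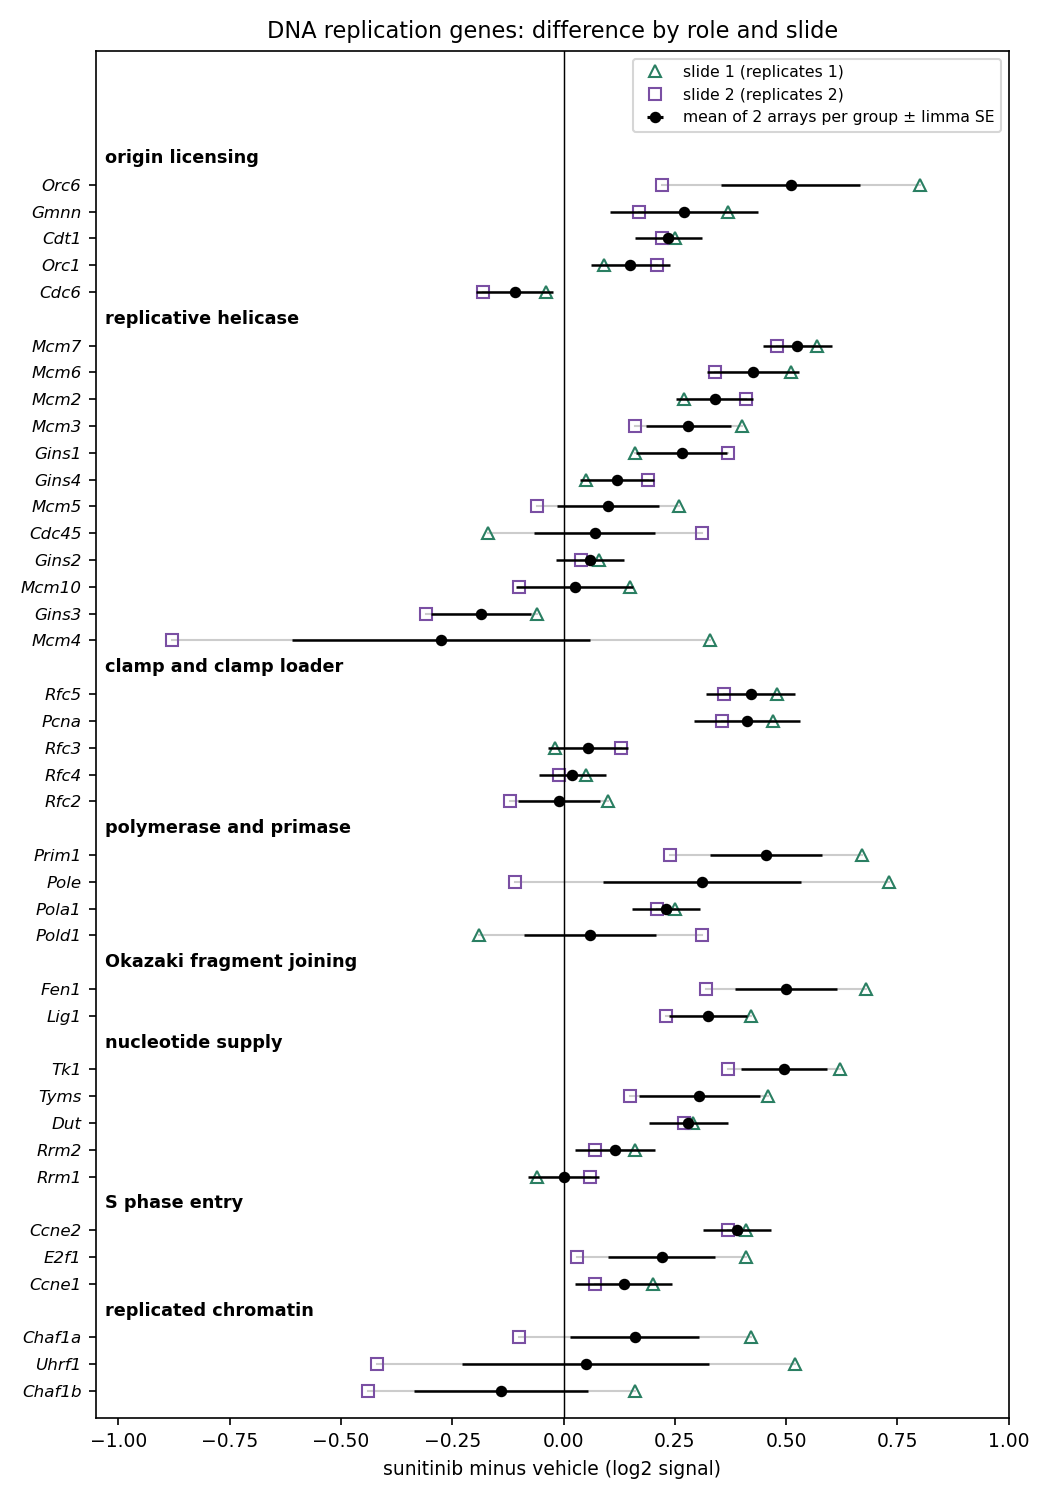
Difference between sunitinib and vehicle (log2 signal) for the 39 DNA replication genes, grouped by role. Black points are the mean of 2 arrays per group with the limma standard error, triangles are slide 1 and squares slide 2. In 24 genes both slides lie right of 0, Mcm7 has a mean of 0.53, and the squares of Mcm4, Uhrf1 and Chaf1b lie furthest left.

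**Figure D2:**
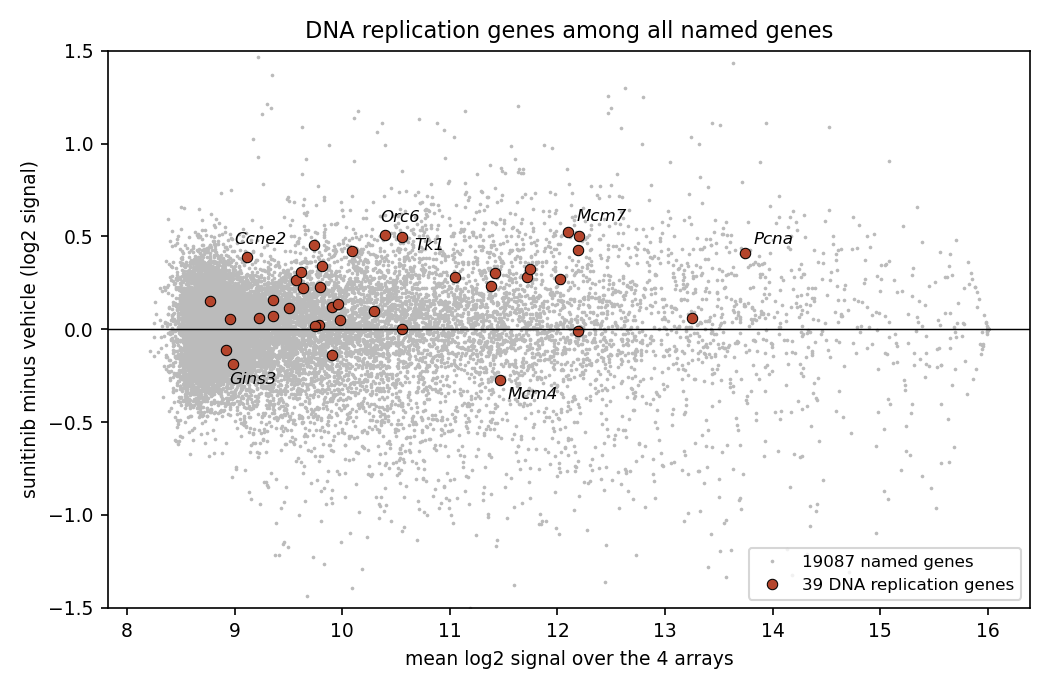
Difference between sunitinib and vehicle (log2 signal) against mean log2 signal over the 4 arrays, for the 39 replication genes (red) and all 19087 named genes (grey). The vertical axis ends at 1.5 on either side of 0, and 39 genes beyond it, none a replication gene, are not drawn. Of the replication genes 33 lie above 0 and 5 below.

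Of the 5 members of origin licensing, 4 were higher and 1 lower on both slides, against 32% and 27.9% of all named genes. The median difference was 0.24, and 2 were higher at an unadjusted limma p under 0.05 (8.02% of all named genes). Orc6, the smallest subunit of the origin recognition complex, gave 10.79 and 10.51 under sunitinib and 9.99 and 10.29 under vehicle. The groups did not overlap, although vehicle replicate 2 lay close to sunitinib replicate 2, and the difference was 0.51 (SE 0.16, n = 2 per group, limma adjusted p = 0.362), made up of 0.80 on slide 1 and 0.22 on slide 2. Cdt1, the licensing factor that brings the Mcm ring to origins, gave 11.52 and 11.49 under sunitinib and 11.27 in each vehicle array. The difference of 0.24 (SE 0.08) was much alike on the slides (0.25 and 0.22). Geminin, the Cdt1 inhibitor encoded by Gmnn, gave 12.36 and 11.96 under sunitinib and 11.99 and 11.79 under vehicle. Its groups overlapped, and the difference was 0.27 (SE 0.17). Orc1, the ATPase subunit of the origin recognition complex, differed by 0.15 (SE 0.09) and the loader Cdc6 by -0.11 (SE 0.09). Both lay near background, and the other feature of Cdc6, also near background, differed by 0.17, so that the sign of Cdc6 is not settled.

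The helicase and its activators count 12 members, with a median of 0.11. On both slides 7 were higher and 1 lower, against 32% and 27.9% of all named genes. In the Mcm ring itself, 4 subunits were higher on both slides and 2 were not. Mcm7 gave 12.38 and 12.35 under sunitinib and 11.81 and 11.87 under vehicle. Both groups were tight and far apart relative to their spread, and the difference of 0.53 (SE 0.08, adjusted p = 0.362) had the smallest unadjusted p of the members (0.00159). Mcm6 gave 12.51 and 12.30 under sunitinib and 12.00 and 11.96 under vehicle (difference 0.43, SE 0.10). Mcm2, which gave 9.98 and 9.99 under sunitinib and 9.71 and 9.58 under vehicle (difference 0.34, SE 0.09), was the one subunit of the ring with the larger difference on slide 2 (0.41, against 0.27 on slide 1), and with the trend in position on the array removed its difference was 0.19. The brighter feature of Mcm3 gave 11.94 and 11.78 under sunitinib and 11.54 and 11.62 under vehicle, a difference of 0.28 (SE 0.10), and its dimmer feature differed by 0.12 (SE 0.08). In these 4 genes the sunitinib and vehicle arrays did not overlap.

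Mcm5 and Mcm4 were the subunits that read lower on slide 2. Mcm5 gave 10.47 and 10.22 under sunitinib and 10.21 and 10.28 under vehicle, so that the groups overlapped (difference 0.10, SE 0.11). With the position trend removed it was higher on both slides, by 0.34 and 0.04. Mcm4 gave 11.80 and 10.85 under sunitinib and 11.47 and 11.73 under vehicle. Its sunitinib arrays enclosed both vehicle arrays, with 0.33 on slide 1 and -0.88 on slide 2, and the mean difference of -0.28 had an SE of 0.34. Without sunitinib replicate 2 the difference was 0.20, and without sunitinib replicate 1 it was -0.75. The other Mcm4 feature, near background, differed by -0.04 and -0.28 on the slides. The local trend is the running median over the surrounding 21 by 21 features, taken on each array from deviations from the mean over the arrays. At the bright Mcm4 feature, that of the sunitinib array minus that of the vehicle array was -0.28 on slide 2. With this local trend taken off, Mcm4 still differed by -0.60 on slide 2.

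**Figure D3:**
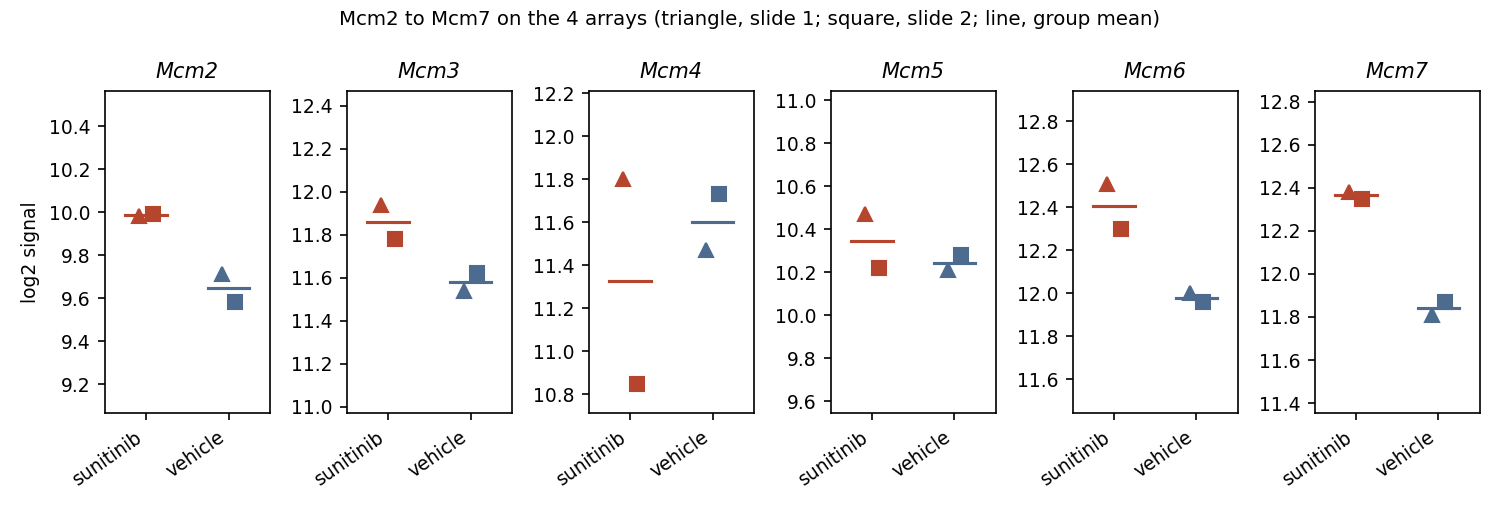
Log2 signal of Mcm2 to Mcm7 on the 4 arrays, with sunitinib on the left and vehicle on the right in each panel; triangles are slide 1, squares slide 2 and lines the group means of 2 arrays. Every panel spans 1.5 log2 units. In Mcm2, Mcm3, Mcm6 and Mcm7 both sunitinib arrays lie above both vehicle arrays, and in Mcm4 sunitinib replicate 2 lies lowest at 10.85.

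The factors that activate the ring differed unequally. The GINS subunit Gins1 read 9.70 in both sunitinib arrays against 9.54 and 9.33 in the vehicle arrays (difference 0.27, SE 0.10). Its other feature separated the groups further, with 9.69 and 9.71 under sunitinib and 9.21 and 9.26 under vehicle (difference 0.47, SE 0.08, unadjusted p = 0.00232). The other GINS subunits did not follow it closely, since Gins4 differed by 0.12 (SE 0.08), Gins2 by 0.06 (SE 0.08) and Gins3, near background, by -0.19 (SE 0.11). Cdc45, the helicase activator that binds GINS, gave 9.26 and 9.53 under sunitinib and 9.43 and 9.22 under vehicle. The groups overlapped (difference 0.07, SE 0.14), as they did for Mcm10, which helps to start unwinding (0.03, SE 0.13). With the position trend removed Mcm10 was higher on both slides and its groups no longer overlapped (difference 0.20, SE 0.11).

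The clamp was measured by 10 features spread over the array, which makes Pcna the most repeatedly measured member besides E2f1. The median of the 10 was 14.08 and 13.83 in the sunitinib arrays against 13.61 and 13.48 in the vehicle arrays, with an SD among features of 0.14 to 0.24 on an array. Each of the 10 was higher with sunitinib on both slides, and in each both sunitinib arrays lay above both vehicle arrays. Over single features the difference ran from 0.25 to 0.48, with a median of 0.37, and the medians over features on each array differed by 0.41 in the fit (SE 0.12, adjusted p = 0.362). These features repeat the measurement of the same 4 RNA samples and do not add samples.

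Clamp loader subunits differed unequally. On both slides 1 of 4 was higher, near the share of all named genes (32%). Rfc5 gave 10.27 and 10.34 under sunitinib and 9.79 and 9.98 under vehicle, and its groups did not overlap (difference 0.42, SE 0.10). Rfc2 gave 12.22 and 12.15 under sunitinib and 12.12 and 12.27 under vehicle, a difference of -0.01 (SE 0.09) with overlapping groups. Its dimmer feature differed by 0.13 (SE 0.09). Rfc4 differed by 0.02 (SE 0.08) and Rfc3, near background, by 0.06 (SE 0.09).

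All 4 genes that start and extend the strands were higher on average (median 0.27), as were 50.5% of all named genes. On both slides 2 of them were higher, against 32% of all named genes. Prim1, the catalytic primase subunit that lays the RNA primers, gave 10.09 and 9.85 under sunitinib and 9.42 and 9.61 under vehicle. The groups did not overlap, and the difference of 0.46 (SE 0.13) was larger on slide 1 (0.67) than on slide 2 (0.24). Pola1, the catalytic subunit of polymerase alpha, gave 9.93 and 9.88 under sunitinib and 9.68 and 9.67 under vehicle (difference 0.23, SE 0.08), and its other feature, near background, differed by 0.33 (SE 0.08). Pole, of the leading-strand polymerase, gave 10.06 and 9.49 under sunitinib and 9.33 and 9.60 under vehicle. Its groups overlapped, and the difference of 0.31 (SE 0.22) was 0.73 on slide 1 and -0.11 on slide 2. Pold1, of the lagging-strand polymerase, depended on the feature. The brighter gave 13.10 and 13.46 under sunitinib and 13.29 and 13.15 under vehicle (difference 0.06, SE 0.15), and the dimmer 10.97 and 10.88 under sunitinib and 10.63 and 10.68 under vehicle, without overlap (difference 0.27, SE 0.08).

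Both enzymes that finish Okazaki fragments were higher. Fen1, the flap endonuclease that removes the primer end, gave 12.57 and 12.34 under sunitinib and 11.89 and 12.02 under vehicle (difference 0.50, SE 0.12, adjusted p = 0.362). Lig1, the ligase that seals the nick, gave 11.96 and 11.86 under sunitinib and 11.54 and 11.63 under vehicle. Its difference of 0.33 (SE 0.09) shrank to 0.14 (SE 0.10) once the trend with position on the array was removed, whereas that of Fen1 was then 0.61 (SE 0.12).

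Of the 5 members of nucleotide supply, 4 were higher and 0 lower on both slides, against 32% and 27.9% of all named genes. Their median difference was 0.28. Thymidine kinase, Tk1, which salvages thymidine, gave 10.88 and 10.72 under sunitinib and 10.26 and 10.35 under vehicle (difference 0.50, SE 0.10, adjusted p = 0.362). Dut, the enzyme that removes dUTP, gave 11.24 and 11.13 under sunitinib and 10.95 and 10.86 under vehicle (difference 0.28, SE 0.09). Its dimmer feature went the other way (-0.13, SE 0.11), and with the position trend removed the brighter one differed by 0.13. Ribonucleotide reductase, which makes deoxynucleotides, was close to even. Its large subunit Rrm1 gave 10.52 and 10.60 under sunitinib and 10.58 and 10.54 under vehicle, a difference of 0.00 (SE 0.08), and its small subunit Rrm2 differed by 0.12 (SE 0.09).

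Thymidylate synthase, Tyms, which makes dTMP, had 3 features of unlike sign. The brightest gave 11.74 and 11.40 under sunitinib and 11.28 and 11.25 under vehicle (difference 0.31, SE 0.13 in the fit of single features). The next gave 10.39 and 10.87 under sunitinib and 11.17 and 10.77 under vehicle, a difference of -0.34 (SE 0.22) that came from slide 1 (-0.78). The dimmest differed by 0.15 (SE 0.13). No direction is therefore given for Tyms.

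**Figure D4:**
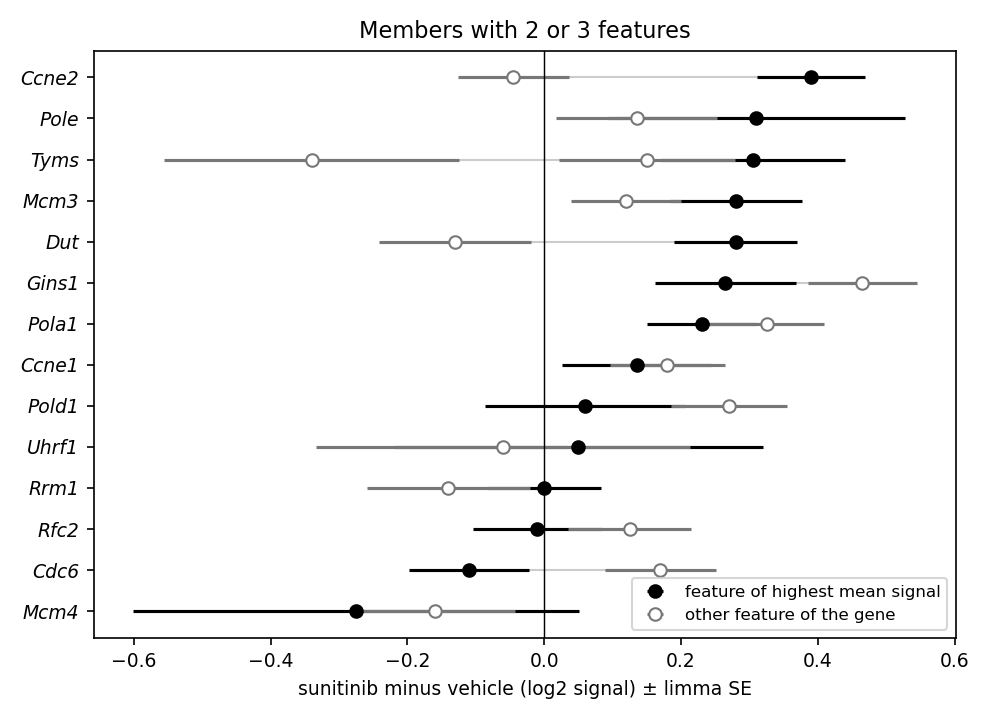
Difference between sunitinib and vehicle (log2 signal, with limma standard error) for each feature of the 14 members with 2 or 3 features. Filled points are the feature of highest mean signal, which stands for the gene, and open points its other features. Features of Ccne2, Cdc6, Dut, Rfc2, Tyms and Uhrf1 lie on both sides of 0.

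Across the members, 16 had several features and 9 of these had no pair of opposite sign. In 7 the signs were mixed, and in 4 of them (Cdc6, Dut, E2f1 and Tyms) a feature lay at 0.1 or more on each side of 0. Of the 73 features, 60 were higher with sunitinib on average, 12 lower and 1 even. On both slides 46 were higher (63.0%) where 31.2% of the features with 1 gene symbol were, and 3 lower where 28% were. In 43 the sunitinib arrays lay above both vehicle arrays, against 25.3%. Features of 1 gene share the same 4 RNA samples, so these counts are not counts of independent measurements.

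The S phase regulators were higher to unequal degrees. Ccne2, a cyclin that activates Cdk2 at S phase entry, gave 9.33 and 9.29 under sunitinib and 8.92 in each vehicle array (difference 0.39, SE 0.08, adjusted p = 0.362). Both vehicle arrays were below the median gene level of 9.08. Its other feature, near background, read 8.87 and 8.80 under sunitinib and 8.87 and 8.89 under vehicle. Its paralog Ccne1 differed by 0.14 (SE 0.11) on the brighter feature and 0.18 (SE 0.08) on the dimmer. E2f1, the transcription factor that drives many of these genes, had 11 features, with medians of 9.88 and 9.62 in the sunitinib arrays against 9.47 and 9.59 in the vehicle arrays. The difference was 0.22 (SE 0.12), with 0.41 on slide 1 and 0.03 on slide 2.

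The features of E2f1 were unlike each other on slide 2. All 11 were higher with sunitinib on slide 1 (0.04 to 0.59), and on slide 2 they ran from -0.51 to 0.21. Of the 6 features where the local trend on slide 2 (sunitinib minus vehicle) was below 0, 4 read lower there. None of the other 5 did. For Pcna the slide 2 difference was 0.16 to 0.35 at the 4 features with a local trend below 0 and 0.35 to 0.53 at the other 6. Over all 73 member features, 13 of 24 with a local trend below 0 read lower on slide 2, against 7 of 49 elsewhere. The local trend comes from the same slide 2 arrays, so a split in this direction is built into the grouping. The share over all features of the array was not counted, and nothing particular to the members is read from these counts. With the position trend removed the E2f1 difference was 0.17, made up of 0.39 on slide 1 and -0.04 on slide 2.

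**Figure D5:**
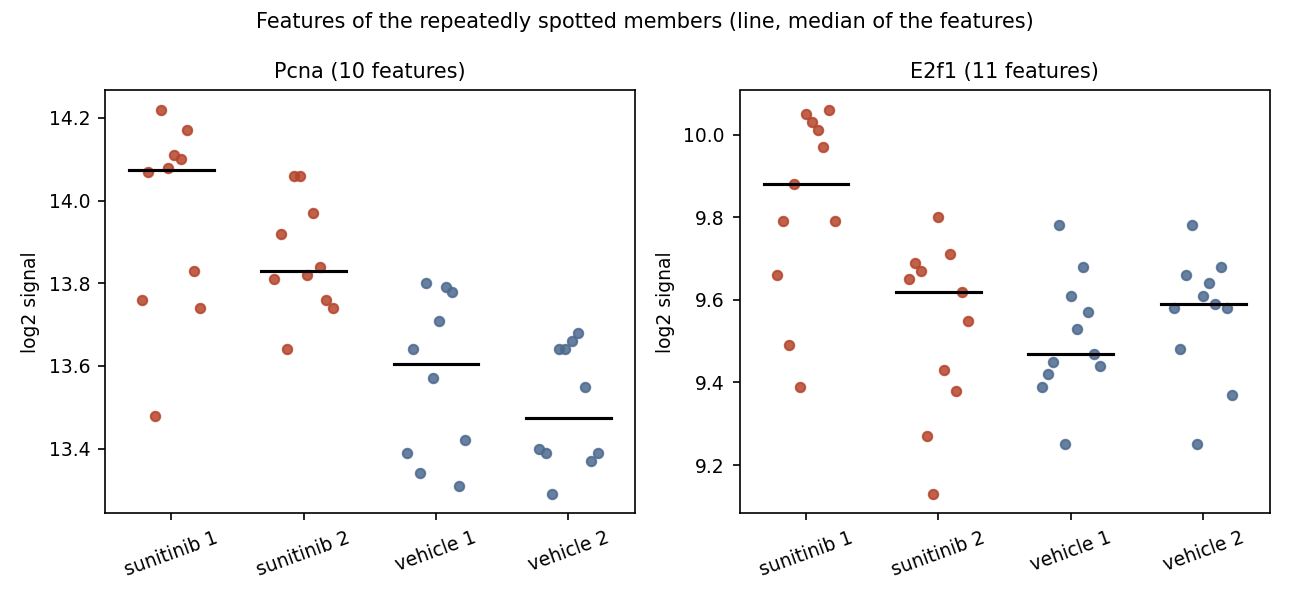
Log2 signal of the 10 Pcna features and the 11 E2f1 features on each array, with sunitinib arrays to the left of vehicle arrays; each point is a feature and lines are medians over features. Pcna medians are 14.08 and 13.83 with sunitinib and 13.61 and 13.48 with vehicle, while E2f1 features of sunitinib replicate 2 reach down to 9.13.

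Genes that rebuild chromatin on new DNA differed in sign between the slides. Chaf1a and Chaf1b encode subunits of the histone chaperone CAF-1, and Uhrf1 recruits the maintenance methyltransferase to new DNA. Chaf1a gave 0.42 on slide 1 and -0.10 on slide 2, Chaf1b 0.16 and -0.44, and Uhrf1 0.52 and -0.42. In all 3 the sunitinib arrays overlapped the vehicle arrays. Both Uhrf1 features behaved alike, and their local trends on slide 2 (sunitinib minus vehicle) were -0.27 and -0.24. With the trend removed, the slide 2 difference of the brighter feature was -0.15, while that of Chaf1b was -0.34.

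Removing the trend with position over the whole array left the overall count of members much as it was. Then 24 members were higher on both slides, compared with 27.5% of all named genes. They were not all the same genes, since E2f1, Gins2 and Gins4 left this group and Cdc6, Mcm5 and Mcm10 entered it. On both slides 4 members were lower, and the share of all named genes lower there was not counted. At an unadjusted p under 0.05, 13 members were higher, compared with 5.88% of all named genes. Of these 13, 12 were among the 15 above and Gins1 was not. Mcm2, Lig1 and Dut no longer had such a p. In the values as deposited, slide 1 gave the larger difference for 31 members and slide 2 for 8. The same count over all named genes was not made, and their median difference was 0 on slide 1 and 0.02 on slide 2. Without the trend, the median of the members was 0.28 on slide 1 and 0.11 on slide 2.

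Other genes of the same machinery, from a list of 43 of which 42 had a feature, were less shifted at the median (0.11). On both slides 47.6% were higher and 23.8% lower (20 and 10 genes), where 32% and 27.9% of all named genes were. At an unadjusted p under 0.05, 5 were higher (11.9%, near the 8.02% of all named genes) and 0 lower. These 5 were Dscc1, part of the clamp loader that serves sister chromatid cohesion (0.46, SE 0.09), the histone chaperone Asf1b (0.32, SE 0.08), the origin recognition subunit Orc5 (0.34, SE 0.08), the RNase H2 subunit Rnaseh2b (0.48, SE 0.12), and Rpa1, which coats single-stranded DNA (0.26, SE 0.09). Top2a, the topoisomerase of dividing cells, differed by 0.16 (SE 0.09). With all probes of a gene averaged, Dscc1 differed by 0.20, Orc5 by 0.19 and Rnaseh2b by 0.20. With the slide as a block, Rpa1 had an unadjusted p of 0.0609. Over the 15 measured genes of nucleotide supply outside the members the median difference was 0.15. On both slides 10 were higher and 1 lower, against 32% and 27.9% of all named genes. At that p 5 were higher (33.3%, against 8.02%), namely Shmt1 (0.40), Cad (0.52), Dck (0.41), Dtymk (0.41) and Samhd1 (0.99). With the slide as a block 4 of them were (26.7%, against 5.46% of all named genes). Samhd1, which degrades deoxynucleotides, differed by 1.58 on slide 1 and 0.40 on slide 2 and had an unadjusted p of 0.0712 with the block. Averaging all probes gave 0.19 for Shmt1 and 0.25 for Dck. Cad, which starts pyrimidine synthesis, lost its difference when all its probes were averaged (-0.0075). No gene of these lists passed after adjustment.

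The closest other group is the genes of mitosis. Of 35 measured, 26 read higher on each slide and 3 lower (74.3% and 8.57%, against 32% and 27.9% of all named genes), with a median of 0.19. At an unadjusted p under 0.05, 13 were higher and 1 lower (37.1% and 2.86%, against 8.02% and 5.93%). With the slide as a block 8 were higher (22.9%, against 5.46% of all named genes). At that p 2 were lower with the block, as were 751 of the 19087 named genes. Mki67, the gene of the Ki-67 antigen, gave 11.93 and 11.81 under sunitinib and 11.56 in each vehicle array (difference 0.31, SE 0.09). Whether replication and mitosis genes differed from each other was not tested.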

How the data were processed

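RNA of 4 xenograft samples was measured on 1-colour mouse arrays (Cy3). The log2 values, 1 per feature and array, were used as the authors deposited them, and the submitters' processing notes list limma, with no version. That they are log2 was judged from their range; how background was corrected and arrays normalized is not given in the sources used here. No detection flags were used. Precision is limited by the number of arrays.

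Names came from the platform annotation, with symbols updated by gene number. Of the 45220 features, 33653 had 1 gene, 56 several and 11511 were not listed there. Where gene and accession recurred in at least 8 spots (217 probes, Pcna and E2f1 among them), the median was taken. The brightest probe stands for a gene. Sunitinib was compared with vehicle by lmFit and eBayes in limma 3.58.1 (R 4.3.3), adjusted by Benjamini-Hochberg over 30654 values with a threshold of 0.05, and every feature was also fitted as a row of its own. The fit was tested on simulated data. Nothing in the labels says that replicates came from separate animals, so p-values measure only the spread between samples, which may be technical. Genes were named by rule: all members, up to 5 genes of smallest p from each other list, Mki67, Top2a, Xist and Eif2s3y. The members and lists were chosen with earlier results of these data known.

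Array titles place replicates of the same number on the same slide, so the numbers pair the samples by slide. Same-slide arrays deviated from their group means with r = -0.225 over all tested values and -0.504 over the members. Alternatives were the slide as a block, quantile normalization, median centring, dropping probes under the 30th percentile, averaging probes, every probe as a row, a trended robust prior, leaving out each array, and a floor at the 5th percentile. Removal of a running median over 21 by 21 features (85 columns by 532 rows, inferred from feature numbers; neighbouring rows correlated at 0.15 to 0.27), alone and with the slide block, and a crossed block were added after seeing the data. Array number on the slide was the same for all arrays of a group and cannot be told apart from treatment.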

Additional observations from a re-analysis of the deposited data

How the results depend on the processing

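The count of members passing after adjustment was 0 under all 15 alternatives. The median difference of the members was above 0 in all of them, at 0.16 with the mean of all probes and 0.14 to 0.27 without 1 array. Without 1 array, 6 to 16 members were higher at an unadjusted p under 0.05 and 0 to 3 lower. The share of all named genes lower at that p without 1 array was not counted. The slide as a replicate block gave 10 members higher and 8 mitosis genes. Of the 39 members, 27 kept their sign under every alternative, Rrm1 had a difference of 0, and 11 took the other sign in some, namely Cdc45, Cdc6, Chaf1b, Mcm10, Mcm4, Mcm5, Pold1, Rfc2, Rfc3, Rfc4 and Uhrf1. With the mean of all probes, 6.64% of all named genes were higher at an unadjusted limma p under 0.05. The count was then 2 of 42 other replication genes, not above that share, and 3 of 15 in other nucleotide supply. Cad differed by -0.0075. With the position trend removed and the slide block, 4.67% of all named genes were higher at that p. The counts were 5 of 31 S phase control genes and 6 of 35 mitosis genes. Without 1 array the counts were 2 to 6 for other replication genes, 2 to 4 for other nucleotide supply, 5 to 7 for S phase control and 6 to 9 for mitosis. Crossing the replicate numbers in the block gave 13 members higher, and the share of all named genes was not counted there. The causes were not tested. With 2 arrays per group, and dim genes near a floor, small differences of the 4 dim members cannot be resolved.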

Other observations

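Regulators of S phase entry outside the members differed in both directions. The list held 31 genes, with a median difference of 0.04 on the log2 scale, and at an unadjusted limma p under 0.05, 9 were higher and 3 lower (29.0% and 9.68%, against 8.02% and 5.93% of all named genes), with 0 after adjustment. With the slide as a block 7 were higher (22.6%, against 5.46% of all named genes). With the block 1 was lower, as were 751 of the 19087 named genes. Activating members of the E2F family other than E2f1 were among the higher genes. E2f3 gave 12.41 and 12.69 under sunitinib and 11.86 and 12.07 under vehicle (difference 0.59, SE 0.14), and E2f2 gave 10.80 and 10.70 under sunitinib and 10.33 and 10.31 under vehicle (difference 0.43, SE 0.08). E2f5, which usually acts as a repressor with the pocket proteins, gave 9.90 and 9.94 under sunitinib and 9.36 and 9.41 under vehicle (difference 0.54, SE 0.08), and the pocket protein gene Rbl1 differed by 0.42 (SE 0.08). The kinase inhibitor gene Cdkn2c differed by 0.39 (SE 0.08). Averaging all probes gave 0.14 for E2f3 and 0.24 for E2f5, and removing the position trend gave 0.25 for E2f2, 0.35 for E2f5 and 0.22 for Cdkn2c. In each of these 5 genes the sunitinib arrays lay above both vehicle arrays and the slides gave differences of the same sign. Cdk6, Cdkn2b and Cdk2, named after their values were seen because they were the 3 lower genes, differed by -0.74 (SE 0.28), -0.30 (SE 0.08) and -0.26 (SE 0.08), and Cdk2 lay near background. With the block, Cdk6 and Cdk2 had unadjusted limma p-values of 0.0775 and 0.0536.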
